A study of Mus musculus with 2 samples.

Results

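The genes described here are the acetylcholine-synthesizing enzyme Chat, the acetylcholine-degrading enzyme Ache and 8 subunit genes of the neuronal nicotinic receptor, Chrna3, Chrna4, Chrna5, Chrna6, Chrna7, Chrnb2, Chrnb3 and Chrnb4. They were chosen by name, and all 10 were found among the 43346 Ensembl genes of the tables. RNA came from the midbrain of B6NCrl mice at an age of 0 days, 1 library for pup 1 and 1 for pup 3, and the labels give no second condition. Each library holds the RNA of a single whole midbrain, the pups share 1 donor identifier, and sex was not recorded.

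Acetylcholine is made by Chat from choline and acetyl-CoA, loaded into vesicles by Slc18a3, cleared from the synapse by Ache, and rebuilt from choline recovered by Slc5a7. Neuronal nicotinic receptors are pentameric cation channels that acetylcholine opens, built of alpha and beta subunits, or of Chrna7 alone. In the midbrain, dopamine neurons are known for receptors with Chrna4, Chrna6, Chrnb2 and Chrnb3, and the oculomotor nuclei for cholinergic motor neurons. The habenula, which lies in the neighbouring diencephalon, and its midbrain target, the interpeduncular nucleus, are known for Chrna3, Chrna5 and Chrnb4.

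The libraries held 36934868 expected counts in pup 1 and 40769103 counts in pup 3, and an expected count is the estimated number of reads of a gene. Ddx3y, on the Y chromosome, had 2618 counts in pup 1 and 0 counts in pup 3. The counts of Xist were 2.26 in pup 1 and 10434 in pup 3, so a difference between the pups cannot be told apart from sex. The labelled tissue was checked with 3 genes. The midbrain and hindbrain factor En1 was at 8.60 TPM in pup 1 and 7.82 TPM in pup 3, the dopamine enzyme Th at 29.8 and 22.3, and the vesicular glutamate transporter Slc17a6 at 126 and 123. TPM is the count per effective length, scaled to the same total in every library. It thus compares genes of different length as far as the annotated transcript lengths are right. Values given as mean ± SD are over the 2 pups (n = 2). In tissue RNA, fewer cells of a type and less RNA per cell cannot be told apart.

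What sets alpha subunits apart from beta subunits is a pair of adjacent cysteines at the acetylcholine site, and the coding stretches that hold or lack it are shown here because the levels below are read by these classes. In the leading transcript of each gene, read from GENCODE M21 (build mm10), all 5 alpha genes had 1 pair of adjacent cysteine codons and 0 of the 3 beta genes had any. Capitals mark that pair, and each alpha stretch runs from 8 codons before it to 10 codons after it. They lie at chr9:55015824-55015883 (Chrna3, minus strand, codons 222 and 223), chr2:181029248-181029307 (Chrna4, minus, 227 and 228), chr9:55004593-55004652 (Chrna5, plus, 205 and 206), chr8:27407149-27407208 (Chrna6, minus, 222 and 223) and chr7:63106128-63106187 (Chrna7, minus, 212 and 213), each within 1 coding exon.
Chrna3: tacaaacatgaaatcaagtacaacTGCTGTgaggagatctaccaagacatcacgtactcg
Chrna4: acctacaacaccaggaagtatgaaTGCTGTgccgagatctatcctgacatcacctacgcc
Chrna5: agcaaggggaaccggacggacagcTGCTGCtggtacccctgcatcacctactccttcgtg
Chrna6: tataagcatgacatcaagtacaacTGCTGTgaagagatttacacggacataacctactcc
Chrna7: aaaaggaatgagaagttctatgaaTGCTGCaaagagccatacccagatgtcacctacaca

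Among these alpha stretches, a tyrosine codon stood 2 codons before the pair in Chrna3, Chrna4, Chrna6 and Chrna7 and not in Chrna5, a subunit known to join receptors without forming the usual agonist site. The beta stretches that aligned with the one of Chrna4 held 0 cysteine codons. They lie at chr3:89761326-89761376 (Chrnb2, minus strand), chr8:27393879-27393932 (Chrnb3, plus) and chr9:55035317-55035367 (Chrnb4, minus).
Chrnb2: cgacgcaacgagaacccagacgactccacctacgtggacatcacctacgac
Chrnb3: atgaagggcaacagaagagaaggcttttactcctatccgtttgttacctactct
Chrnb4: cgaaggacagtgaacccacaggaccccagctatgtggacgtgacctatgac

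Over the whole translated coding sequence, the closest of the 28 subunit pairs was Chrna5 with Chrnb3, at 67.6% identity over 429 aligned residues, across the alpha and beta names. Chrnb2 with Chrnb4 followed at 63.4% and Chrna3 with Chrna6 at 63.0%. Chrna7 was the most distant member, at 37.7% with Chrnb2 and at most 41.1% with any other subunit, the highest being Chrna3.

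Of the 10 genes, 8 reached 1 TPM in each pup. The background over all 21474 protein-coding genes was 62.1%. Chrnb3 and Chat were below that level in both pups. The median of the 10 was 4.67 TPM in pup 1 and 4.42 TPM in pup 3, beside 4.52 and 4.70 over all protein-coding genes. Levels spanned from Ache at 119 ± 10.1 TPM to Chat at 0.215 ± 0.0495 TPM.

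**Figure D1:**
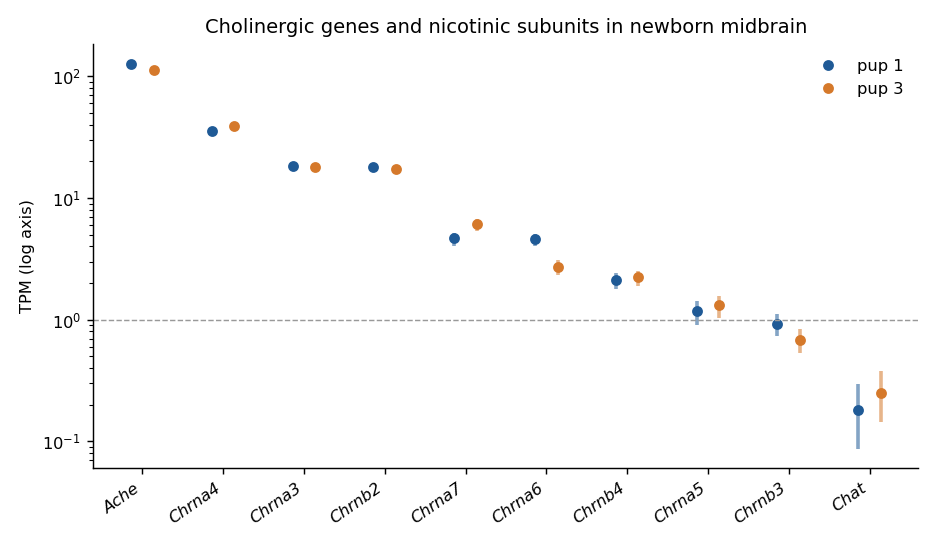
TPM of the 10 genes on a log axis, ordered by mean level, with 1 point for each pup; bars are the credibility interval deposited with the posterior mean TPM, and the dashed line is at 1 TPM. Ache stood highest in both pups, Chrna3 and Chrnb2 lay side by side near 18 TPM, the points of Chrna6 lay apart at 4.64 TPM in pup 1 and 2.72 TPM in pup 3, and Chat was lowest.

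Ache, the enzyme that hydrolyses acetylcholine (ENSMUSG00000023328.10, chromosome 5, 137287519 to 137294466, plus strand), was at 127 TPM in pup 1 and 112 TPM in pup 3, on 6084 and 5876 counts. Its mean level was above that of 93.3% of protein-coding genes. Butyrylcholinesterase, the related enzyme Bche, was at 1.43 TPM in pup 1 and 1.16 TPM in pup 3. The log2 ratio of Ache over Bche was 6.42 ± 0.075, taken after adding 0.1 TPM to each value, as for all ratios between genes here. The anchors of Ache were far below it. Prima1, which tethers the enzyme to brain membranes, was at 1.05 TPM in pup 1 and 0.39 TPM in pup 3, on 19 and 8 counts. Colq, which tethers it at the neuromuscular junction, was at 0.03 and 0.06 TPM, on 2 and 4 counts. On posterior mean values Prima1 was at 2.09 and 1.37 TPM, and Colq at 0.74 and 0.70.

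Chat (ENSMUSG00000021919.7, chromosome 14, 32408203 to 32465989, minus strand) had 11 counts in pup 1 (exact Poisson 95% interval 5.49 to 19.7) and 17 in pup 3 (9.90 to 27.2). Such an interval covers counting error alone, as reads copied by PCR from 1 molecule are not independent. The level of Chat was 0.18 TPM in pup 1 and 0.25 TPM in pup 3, with 28.4% of protein-coding genes at a lower mean. Ache exceeded Chat by 8.57 ± 0.35 on the log2 scale.

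Both transporters that serve the cholinergic terminal were above Chat. Slc18a3, the vesicular acetylcholine transporter, was at 4.67 TPM in pup 1 and 3.35 TPM in pup 3, on 250 and 196 counts. Slc5a7, the choline transporter, was at 1.90 and 1.74 TPM, on 223 counts in each pup. The log2 ratio of Chat over Slc18a3 was -4.09 in pup 1 and -3.30 in pup 3, and that of Chat over Slc5a7 was -2.84 and -2.39. Slc18a3 lies inside the annotated span of Chat on the same strand (32462438 to 32464850), with 0 exonic bases shared between them. Reads of unspliced Chat RNA and of Slc18a3 cannot be told apart in that interval.

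Of the 7 genes listed for acetylcholine supply and clearance beside the members, 5 reached 1 TPM in each pup. The highest were Acly, which makes cytosolic acetyl-CoA in all cells, at 101 ± 2.84 TPM, and the choline transporter-like gene Slc44a1 at 7.18 ± 0.141 TPM. Factors of cholinergic and motor neurons were mostly low, with 3 of 10 reaching 1 TPM in each pup. Isl1, a factor of motor and other neurons, was the highest at 11.2 TPM in pup 1 and 21.9 TPM in pup 3, followed by the neurotrophin receptor gene Ngfr at 4.39 ± 0.0849 TPM. Mnx1, a spinal motor neuron factor, had 0 counts in both pups.

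The alpha subunits were led by Chrna4, which with Chrnb2 forms the common high-affinity brain receptor (ENSMUSG00000027577.10, chromosome 2, 181018380 to 181043546, minus strand). Chrna4 was at 35.8 TPM in pup 1 and 39.1 TPM in pup 3, on 2963 and 3217 counts. Chrna3, the alpha subunit of ganglionic and habenular receptors (ENSMUSG00000032303.6, chromosome 9, 55010111 to 55026562, minus), was at 18.4 and 17.9 TPM. Chrna7, which forms homomeric receptors (ENSMUSG00000030525.7, chromosome 7, 63098692 to 63212569, minus), was at 4.69 and 6.12 TPM. The pups therefore ordered Chrna4, Chrna3 and Chrna7 alike.

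The remaining alpha subunits were lower. Chrna6, known from dopamine neurons and retinal ganglion cells (ENSMUSG00000031491.9, chromosome 8, 27403212 to 27413944, minus), was at 4.64 TPM in pup 1 and 2.72 TPM in pup 3. Chrna5 (ENSMUSG00000035594.9, chromosome 9, 54980880 to 55007779, plus) was at 1.18 and 1.31 TPM, on 72 and 87 counts. Chrna6 was level with Chrna7 in pup 1 and well below it in pup 3.

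As shares of the summed TPM of the 5 alpha genes, Chrna4 held 56.8% ± 1.99, Chrna3 27.5% ± 1.20, Chrna7 8.18% ± 1.32, Chrna6 5.61% ± 2.20 and Chrna5 1.89% ± 0.0911. Chrna4 was the largest share in both pups, at 55.4% in pup 1 and 58.2% in pup 3. Counted on transcripts annotated as protein-coding alone, its mean share was 49.4%. On counts not divided by length the mean share of Chrna7 was 5.21%.

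Among beta subunits, Chrnb2 (ENSMUSG00000027950.3, chromosome 3, 89746195 to 89764632, minus strand) was at 18.1 TPM in pup 1 and 17.3 TPM in pup 3, on 2213 and 2309 counts. Chrnb4, the partner of Chrna3 in ganglia and habenula (ENSMUSG00000035200.6, chromosome 9, 55028154 to 55048779, minus), was at 2.12 and 2.24 TPM. Chrnb3, an accessory subunit found with Chrna6 (ENSMUSG00000031492.8, chromosome 8, 27368711 to 27399730, plus), was at 0.92 and 0.68 TPM, on 96 and 77 counts. Chrnb2 thus held 85.6% ± 0.0478 of the summed beta TPM, Chrnb4 10.6% ± 0.746 and Chrnb3 3.86% ± 0.698. The 5 alpha genes summed to 64.7 TPM in pup 1 and 67.1 TPM in pup 3, which was 3.06 and 3.32 times the sum of the 3 beta genes. That alpha sum includes Chrna4-204, a transcript with no annotated coding sequence, at 7.52 TPM in pup 1 and 11.7 TPM in pup 3. Coding transcripts of Chrna4 were at 28.3 and 27.3 TPM, so the higher ratio of pup 3 depends on Chrna4-204. The ratio was not taken on coding transcripts or on counts not divided by length.

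The annotated exons of Chrnb2 share 1365 bases with those of Adar, an RNA-editing enzyme gene on the opposite strand, which was at 20.7 TPM in pup 1 and 21.5 TPM in pup 3. The sources used here do not say if strand was used in counting, so reads of Chrnb2 and Adar in that stretch cannot be told apart. The transcript of Chrnb2 in the tables has 5384 nt, against 6399 nt in GENCODE M21, and the overlap in the annotation used by the authors was not measured. Other annotated genes lie across members as well. Gm42456, on the opposite strand, shares 98 exonic bases with Ache, and Mir8116 lies in Ache. Gm2990, on the opposite strand, overlaps the start of Chat and extends beyond it, from 32465042 to 32483548, with 0 exonic bases shared. Gm44741 lies in the span of Chrna7 and Gm47877 in that of Chrnb4.

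**Figure D2:**
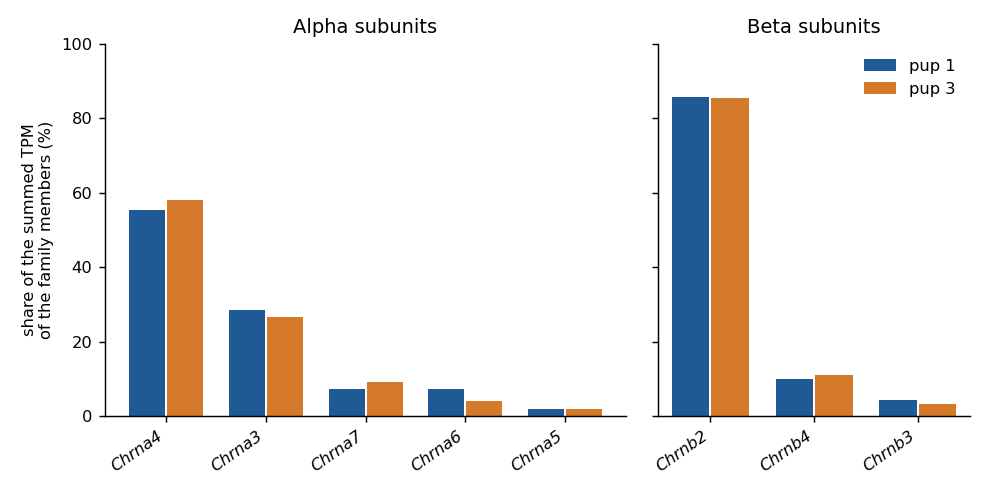
Share of each subunit in the summed TPM of its family, in percent, for pup 1 and pup 3; the left panel holds the 5 alpha genes and the right panel the 3 beta genes. Chrna4 was above 55% of alpha TPM and Chrnb2 above 85% of beta TPM in both pups, while Chrna6 and Chrna7 had nearly equal shares in pup 1 and 4.05% and 9.12% in pup 3.

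Ratios between the genes were set out for 20 pairs. A pair was called apart where both pups had the same sign, the mean exceeded 1 on the log2 scale and 3 SD, and the deposited intervals did not overlap in either pup. With 2 pups the smallest p of an exact sign-flip test is 0.5, and none is printed. By this rule 19 pairs were apart, which describes these libraries only.

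Chrnb2 exceeded Chrnb4 by 2.97 ± 0.10 and Chrnb3 by 4.32 ± 0.23 on the log2 scale. Chrna4 exceeded Chrna5 by 4.80 ± 0.011, Chrna6 by 3.36 ± 0.62 and Chrna7 by 2.78 ± 0.18. Chrna4 over Chrna3 was closer, at 0.96 in pup 1 and 1.12 in pup 3, so pup 1 alone lay below the limit of 1. The same held for Chrnb2 over Chrna4, at -0.98 in pup 1 and -1.17 in pup 3. On protein-coding transcripts alone these 2 ratios were 0.61 and -0.65, and neither pair was apart.

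In the order of levels, Chrna3 and Chrnb2 did not differ beyond their intervals in either pup, with a log2 ratio of 0.021 in pup 1 and 0.051 in pup 3. Chrna7 and Chrna6 overlapped in pup 1, Chrna6 and Chrnb4 in pup 3, and Chrna5 and Chrnb3 in pup 1. The other neighbours in the order had intervals apart in both pups.

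Chrna5, Chrna3 and Chrnb4 form a cluster on chromosome 9, with 2331 bases between Chrna5 and Chrna3 and 1591 between Chrna3 and Chrnb4, yet their levels were unequal. Chrna3 exceeded Chrna5 by 3.76 ± 0.12 on the log2 scale, and Chrnb4 over Chrna3 was -3.00 ± 0.079. Chrnb4 over Chrna5, at 0.76 ± 0.045, was the pair that was not apart, although its intervals did not overlap. All 3 genes were close between the pups, with log2 ratios of pup 1 over pup 3 of -0.14 for Chrna5, 0.04 for Chrna3 and -0.08 for Chrnb4.

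Markers of the habenula, whose cell bodies lie outside the midbrain, and of the interpeduncular nucleus were read beside the cluster. Of the 5 markers, 4 reached 1 TPM in each pup, and all 5 together had 61.7 TPM in pup 1 and 70.7 TPM in pup 3, none of them at 0. Most of that sum lay in Pou4f1, the highest at 35.6 ± 1.36 TPM, and Etv1, the next at 18.9 ± 0.389. Whether the sum came from these cells or from others of the tissue was not tested. The lowest, the habenular receptor gene Gpr151, was at 0.42 TPM in pup 1 and 1.52 TPM in pup 3, on 15 and 59 counts. The log2 ratio of pup 1 over pup 3 was -1.64 for Gpr151, -1.26 for Tac2 and -0.57 for Nwd2, beside -0.08 for Pou4f1 and -0.04 for Etv1. Oxt, a hypothalamic hormone gene, was at -2.23, on 43.4 counts in pup 1 and 226 counts in pup 3. Tac2, Nwd2 and Oxt were named after their values were seen, and whether the tissue content of the pups was unequal was not tested. A difference between the pups cannot be told apart from unequal tissue content either. The part of habenular and interpeduncular cells in the levels of the cluster was not tested.

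Chrnb3 and Chrna6 lie 3481 bases apart on chromosome 8, on opposite strands, and Chrnb3 over Chrna6 was -2.22 in pup 1 and -1.85 in pup 3. Against Th, which marks dopamine neurons, the log2 ratio of Chrna6 was -2.66 in pup 1 and -2.99 in pup 3, and that of Chrnb3 was -4.87 and -4.84. All 7 dopamine neuron markers reached 1 TPM in each pup, led by Th and by Ddc at 19.9 ± 0.269 TPM, with Pitx3 lowest at 2.23 ± 0.134. Genes listed as markers of retinal ganglion cells, whose cell bodies lie in the eye, reached that level for 3 of 4. Pou4f2 led at 11.7 ± 0.870 TPM, followed by Rbpms at 8.11 ± 0.933. Isl2 was lowest at 2 counts in pup 1 and 15 counts in pup 3. Whether these transcripts came from such cells or from the midbrain's own was not tested.

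Between the pups, 7 of the 10 genes had a mean count of 100 or more and were compared, and 0 of them differed by more than 1 on the log2 scale. Over all 13318 genes compared that way 42 did, a background of 0.315%, of which 13 were higher in pup 1 (0.0976%) and 29 higher in pup 3 (0.218%). The median size of the difference was 0.12 over the 7 members and 0.11 over all genes compared. There is no second library of either pup to check a difference against.

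The largest difference among the 7 members compared was that of Chrna6, at 301 counts in pup 1 and 193 counts in pup 3. The log2 ratio of pup 1 over pup 3 was 0.75 on TPM, and 0.78 on counts scaled to depth (exact binomial 95% interval 0.52 to 1.05). Of all genes compared, 0.863% had a larger one. Past 0.5 in size Chrna6 was the 1 member, against a background of 3.18%. Its neighbour Chrnb3, under the count limit, was at 0.39 in the same direction (on depth-scaled counts 0.46, interval 0.013 to 0.91).

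Of the 6 dopamine neuron markers that reached the count limit, 5 were higher in pup 1, where 5986 of all 13318 genes compared were higher. Most of these differences were small. Slc6a3, the dopamine transporter, was at 20.7 TPM in pup 1 and 12.2 TPM in pup 3, with a log2 ratio of 0.76, and Th was at 0.42. Slc18a2 and Ddc were at 0.01 and 0.03 and En1 at 0.14, beside a median size of 0.11 over all genes compared. The factor Nr4a2 was at -0.33, and Pitx3, under the count limit, at -0.12. The summed TPM of the 7 markers was 111 in pup 1 and 97.2 in pup 3, and their part in the difference of Chrna6 was not tested.

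Chrna7 differed the other way, with 216 counts in pup 1 and 308 counts in pup 3. Its log2 ratio was -0.38, and the interval on depth-scaled counts was -0.63 to -0.11. Ache was at 0.17, Chrnb2 at 0.07 and Chrna4 at -0.12. The sign for Chrna4 turned on counts scaled by edgeR or DESeq2 (0.03 in both) and on coding transcripts (0.05), so no direction holds for it. Beyond the members, Isl1 was at -0.96, short of the limit of 1, and at -1.09 on depth-scaled counts.

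**Figure D3:**
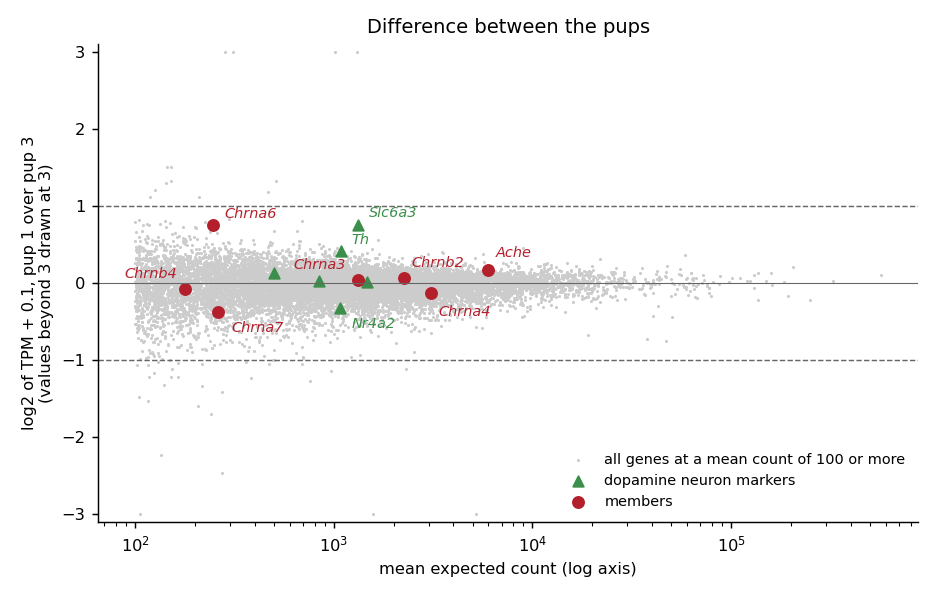
Log2 ratio of TPM + 0.1 in pup 1 over pup 3 against the mean expected count (log axis) for the 13318 genes compared; red points are the 7 members compared, green triangles the dopamine neuron markers, and dashed lines mark a size of 1. Chrna6 and Slc6a3 lay near 0.75 while the other members lay between -0.38 and 0.17.

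The tables held 21 transcripts of the 10 genes. For 7 genes there was 1 transcript, so their share is fixed at 100%, and all 10 genes had the same leading transcript in both pups. For Chrnb3, transcript Chrnb3-201 held 100% in both pups and Chrnb3-202 had 0 counts. On posterior mean values Chrnb3-201 held 88.8% in pup 1 and 75.4% in pup 3.

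Ache was carried by a pair of transcripts. Ache-201 (2186 nt) held 67.0% of the gene's TPM in pup 1 and 67.4% in pup 3, and Ache-202 (2176 nt) held 32.0% and 31.2%. A transcript with a retained intron, Ache-208, held 0.36% and 0.43%. Protein-coding transcripts together held 99.6% ± 0.0455 of Ache TPM.

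Chrna4 was less uniform. Its full-length coding transcript Chrna4-201 (4565 nt) was at 27.1 TPM in pup 1 and 26.6 TPM in pup 3. Chrna4-204, a processed transcript of 712 nt with no annotated coding sequence, was at 7.52 and 11.7 TPM. It held 21.0% of Chrna4 TPM in pup 1 and 30.1% in pup 3, but 3.60% and 5.65% of its counts, since a short transcript needs few reads for the same TPM. The coding transcripts of Chrna4 summed to 28.3 TPM in pup 1 and 27.3 TPM in pup 3, so the higher gene level of pup 3 lay in Chrna4-204.

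**Figure D4:**
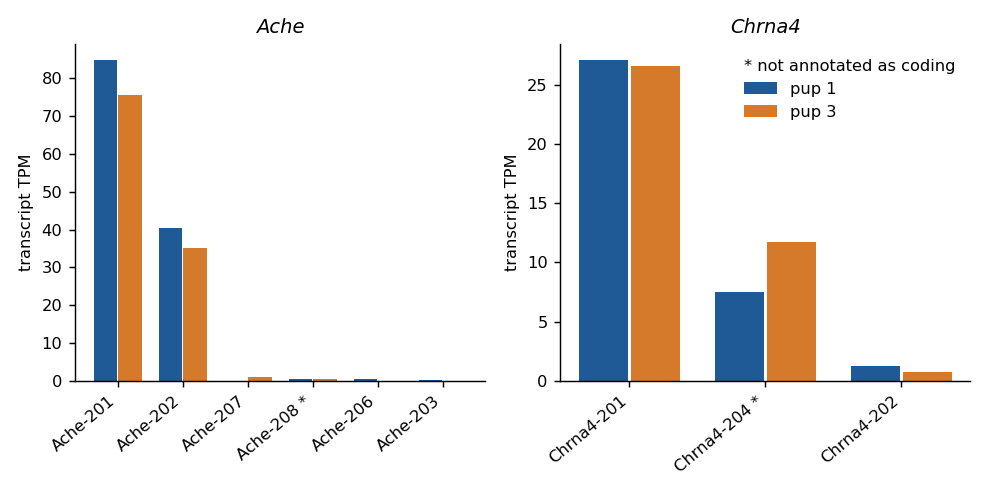
TPM of each transcript of Ache (left) and Chrna4 (right) that was above 0 in either pup, for pup 1 and pup 3; an asterisk marks transcripts not annotated as protein-coding. The main coding transcript of Chrna4 was nearly equal between the pups, and Chrna4-204 was at 7.52 TPM in pup 1 and 11.7 TPM in pup 3.

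Other nicotinic subunits were below 1 TPM. Of the 3 further neuronal subunits, 0 reached 1 TPM. Chrna2, known from the interpeduncular nucleus, was highest at 0.18 ± 0.0424 TPM on 12 counts in pup 1 and 18 counts in pup 3, followed by Chrna9 on 1 count in each pup, and Chrna10 was lowest on 2 and 3. Of the 5 muscle subunits 0 reached 1 TPM. Chrnb1 was at 0.935 ± 0.00707 TPM and Chrne at 0.80 ± 0.198. The muscle-specific Chrnd had 0 counts in both pups (exact Poisson 95% interval up to 3.69 counts in each). On posterior mean values Chrnb1 was at 1.37 TPM in pup 1 and 1.41 TPM in pup 3, and Chrne at 1.15 and 0.84. By that measure Chrna9, at 0.78 and 0.71, was above Chrna2, at 0.16 and 0.21.

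Of the skeletal muscle markers, 2 of 8 reached 1 TPM in each pup, and all 8 together had 19.7 TPM in pup 1 and 19.9 TPM in pup 3. Acta1 made up most of that sum, at 16.5 ± 0.396 TPM, followed by Tnnt3 at 2.08 ± 0.573. Myog, which drives muscle differentiation, was lowest with 0 counts in pup 1 and 1 counts in pup 3.

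Genes that assist or restrain nicotinic receptors reached 1 TPM in each pup for 8 of 11. Their median level was 26.5 TPM in pup 1 against 23.9 TPM in pup 3. The Ly6 proteins, small membrane-anchored relatives of snake toxins that bind the receptors, included the highest members, Ly6h at 884 ± 13.1 TPM and Ly6e at 150 ± 12.0. Psca was lowest, with 1 count in pup 1 and 0 in pup 3. All 8 genes of this list that reached a mean count of 100 were higher in pup 1, where 5986 of 13318 genes were. Their log2 ratios were small, at 0.01 for Ric3 and 0.03 for Ly6h, and at most 0.34, for Lypd6.

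Muscarinic receptors, the G protein-coupled acetylcholine receptors, reached 1 TPM in each pup for 3 of 5. Chrm2, a Gi-coupled receptor, was highest at 6.11 ± 0.403 TPM, followed by Chrm3 at 3.10 ± 0.0141, and Chrm4 was lowest at 0.25 ± 0.0566. The muscarinic median was 2.34 TPM in pup 1 and 2.67 TPM in pup 3, between the levels of Chrnb4 and Chrna7.

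**Figure D5:**
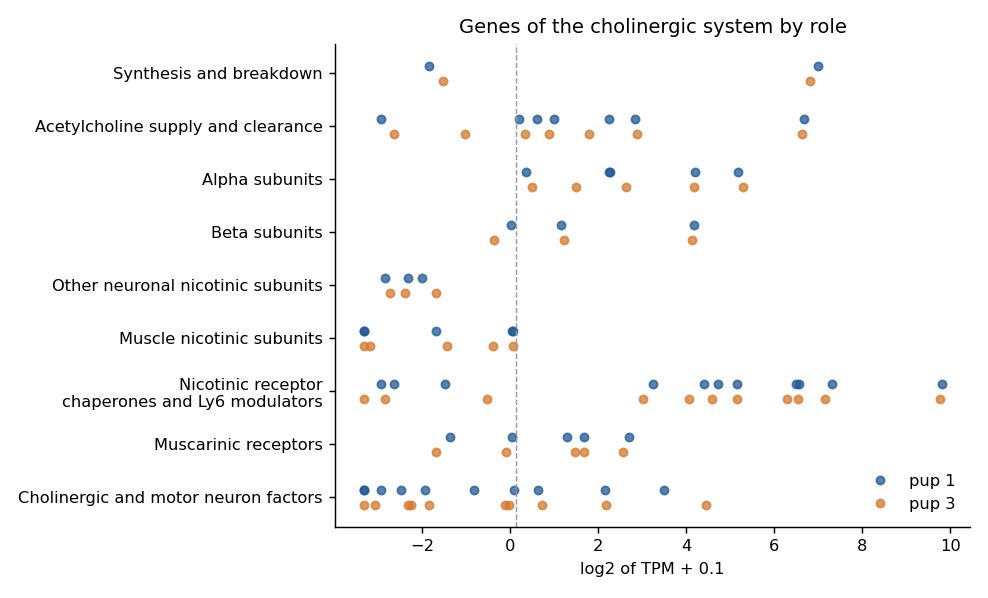
Log2 of TPM + 0.1 for each gene of the cholinergic system, 1 row for each role, with pup 1 above pup 3 in each row; the dashed line is at 1 TPM. Receptor chaperones and Ly6 modulators reached the highest values, other neuronal and muscle nicotinic subunits all lay left of the line, and the synthesis and breakdown row held Ache far above Chat.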

How the data were processed

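Total RNA was sequenced from 1 group of 2 pups. Per the labels' protocols, 10 ng of RNA above 200 nt entered each library. Expected counts were deposited by the authors for each gene and transcript, with TPM scaled over all features of a file, a credibility interval in TPM of unstated level, and each transcript's percent of its gene's TPM. Build mm10 and GENCODE M4 are named in the text records deposited with the tables; the program is not given in the sources used here.

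Symbols, coordinates and transcript types came from GENCODE M21 by identifier without version, for 42462 of 43346 Ensembl genes. Of the members' 21 transcripts 11 have the same length in M21, and these all belong to Ache and Chrna4. Every transcript of the other members differs, as for Chrna3 (3123 nt against 4358 nt in M21) and Chrna5 (2738 nt against 1877 nt). TPM, and with it the shares, order and ratios between genes, rests on the deposited lengths. Levels on M21 lengths were not computed. Coordinates are those of M21. Of a symbol's identifiers, the one with the most counts was used.

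Members and lists were chosen with earlier results of these data known. All members were named; of other lists, the 2 highest, the lowest, any at 0, any in a pair and any overlapping a member. Slc17a6, Prima1, Ric3, Lypd6, Tac2, Nwd2, Oxt, Prph, Dbh, Slc6a3, Slc18a2 and Nr4a2 were named after their values were seen. Subunits were aligned with Biopython 1.88 (BLOSUM62). Scaling used edgeR 4.0.16 and DESeq2 1.42.0 on rounded counts; other steps used R 4.3.3, Python 3.11.15, SciPy 1.17.1, pandas 2.3.3 and numpy 2.4.6. The rule for calls between pups was run on simulated counts with an assumed spread, scaled to depth. TPM was not simulated, so no support for the calls on TPM is drawn from it. Member counts were whole within 0.005. Alternatives were posterior means, counts scaled to depth but not divided by length, coding transcripts, other pseudocounts, filters and thresholds, and leaving out either pup.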

Additional observations from a re-analysis of the deposited data

How the results depend on the processing

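Not dividing counts by length left 6 of 10 members at their rank in the order of levels, and gave Chrna4 61.7% of alpha counts and Chrnb2 89.5% of beta counts. Coding transcripts alone gave Chrna4 49.4% of alpha TPM, and posterior means gave Chrnb2 85.5% of beta TPM, a shift beyond its small SD. The number of all genes past the limit between the pups was 27 with 1 TPM added, 378 at a mean count of 10 or more, 2351 with no minimum and 423 at a limit of 0.5, against 42; at 0.5 it included 1 member, Chrna6. The ratio of pup 1 over pup 3 for Chrna4 reversed to 0.032 with edgeR TMM scaling, to 0.032 with DESeq2 size factors and to 0.052 on coding transcripts, the last chosen after its transcripts were seen. Among pairs, Chrna4 over Chrna3 and Chrnb2 over Chrna4 lost their call without pup 3 (0.96 and -0.98) and on coding transcripts (0.61 and -0.65), where the interval part of the rule could not be used. Chrnb2 over Chrna4 also lost it on counts not divided by length (-0.45), as did Chrnb3 over Chrnb4 (-1.02), which lost it too with 1 TPM added (-0.82), and Chrnb4 over Chrna5 gained one on counts (1.14). The cause of these changes was not tested. No paired analysis was possible because there is 1 group. At this depth Chat, with 11 and 17 counts, supports a level near 0.2 TPM and no comparison between pups.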

Other observations

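Markers of cell types outside the brain parenchyma were also read. Of 6 Schwann cell and peripheral ganglion markers 3 reached 1 TPM in each pup, led by Pmp22 at 26.1 ± 1.07 TPM and Sox10 at 6.54 ± 1.26, both of which glia of the brain also express. The third was Prph, listed as a peripheral neuron marker, at 6.49 TPM in pup 1 and 5.87 TPM in pup 3, on 251 and 249 counts. Dbh, the noradrenaline enzyme, had 22 counts in pup 1 and 11 counts in pup 3. Whether Prph and Dbh came from neurons inside or outside the brain was not tested. Hand2, a factor of peripheral autonomic neurons, which express Chrna3 and Chrnb4, had 0 counts in both pups (exact Poisson 95% interval up to 3.69 counts in each). Of 5 blood markers all 5 reached that level, led by Hba-a2 at 998 ± 70.0 TPM and Hbb-bs at 540.0 ± 14.5, with Alas2 lowest at 6.45 ± 0.283, and all 5 were higher in pup 3, with log2 ratios of pup 1 over pup 3 of -0.14 for Hba-a2 to -0.05 for Hbb-bs, where 7293 of 13318 genes compared were higher. The alpha globin genes are closely similar to each other, as are the beta globin genes, and the split of reads within each family is uncertain.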
